A study of Mus musculus with 12 samples.

Results

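The genes of the urea cycle and of amino acid breakdown were followed in liver RNA of mice killed 4 h after an intraperitoneal cytokine injection. The set is a list of 47 genes, and a gene was read from every Affymetrix probe set whose only gene symbol in the platform table is that gene. Such a probe set was found for 34 of the 47 genes, and 33 of them lay above a low-signal floor on at least 2 arrays and were tested, among 6976 tested genes in all. The 13 genes with no such probe set were Kmo, Kynu, Haao, Gpt, Sds, Gls2, Prodh, Aldh4a1, Pcca, Aldh6a1, Cbs, Cth and Amt, which are not analysed here. Got1, the cytosolic aspartate aminotransferase, read 17.8 to 21.9, below the floor on all 12 arrays, and was not tested.

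The 12 arrays form 6 groups of 2, and every group name below stands for livers. In the control group the mice had 1 wild-type and 1 floxed allele of Socs3 and lacked the albumin-cre transgene (albumin-cre(-) Socs3(w/fl)). In the Socs3-deleted group 1 allele was null, the other floxed, and albumin-cre was present (albumin-cre(+) Socs3(-/fl)), which drives Cre recombinase from a promoter of hepatocytes. Each of these groups was injected either with interleukin-6 (IL-6) or with phosphate-buffered saline (PBS) alone. The Ifng-null group (Interferon-gamma-/-) was injected with interferon-gamma (IFN-γ) or PBS. Among the samples used here no mice with an intact Ifng gene received IFN-γ, and doses and ages are not stated. Socs3 encodes the feedback inhibitor that limits signalling from the IL-6 receptor subunit gp130, and its brighter probe set read 74.4 to 106 on the 4 Socs3-deleted arrays and 117 to 167 on the 4 control arrays. The words without Socs3 below stand for Socs3-deleted livers, where this signal was lower and not absent. These livers differ from the control livers in the transgene and in the Socs3 alleles together, which cannot be told apart.

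Hepatocytes take the nitrogen out of amino acids by transamination and deamination and turn the ammonia into urea, in a cycle that is split between mitochondria and cytosol. The carbon skeletons are burned or used for glucose, through separate routes for tyrosine, tryptophan, histidine, the branched-chain amino acids, methionine and glycine. During the acute phase response, which IL-6 drives in hepatocytes, the liver shifts towards making secreted plasma proteins.

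Stretches before the gene starts were available for 35 of the 47 genes, from RefSeq on build GRCm38.p6. They are shown for the 4 members with the lowest p after IL-6 in Socs3-deleted livers among those with a stretch, Slc25a15 and Hpd, which passed the test there, and Hgd and Hal, which missed it. These 4 were picked after their values and matches had been seen. Each line gives the 250 bases before the gene start, 5′ to 3′ on the gene's strand, with matches to the C/EBP motif TTNNGNAA on either strand in capitals. Slc25a15 is shown at the more upstream of its 2 listed starts (chr8:22398622-22398871, minus strand), Hpd at chr5:123182724-123182973 (minus strand), Hal at chr10:93488518-93488767 (plus strand) and Hgd at chr16:37579903-37580152 (plus strand).
Slc25a15: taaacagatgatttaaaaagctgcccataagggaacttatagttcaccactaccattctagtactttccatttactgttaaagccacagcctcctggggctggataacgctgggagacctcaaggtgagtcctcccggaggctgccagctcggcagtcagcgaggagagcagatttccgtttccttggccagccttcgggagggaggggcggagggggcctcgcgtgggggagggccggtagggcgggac
Hpd: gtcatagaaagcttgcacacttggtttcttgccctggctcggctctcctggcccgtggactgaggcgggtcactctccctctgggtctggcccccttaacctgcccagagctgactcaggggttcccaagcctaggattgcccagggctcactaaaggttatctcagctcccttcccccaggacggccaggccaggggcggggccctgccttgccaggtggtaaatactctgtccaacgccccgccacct
Hal: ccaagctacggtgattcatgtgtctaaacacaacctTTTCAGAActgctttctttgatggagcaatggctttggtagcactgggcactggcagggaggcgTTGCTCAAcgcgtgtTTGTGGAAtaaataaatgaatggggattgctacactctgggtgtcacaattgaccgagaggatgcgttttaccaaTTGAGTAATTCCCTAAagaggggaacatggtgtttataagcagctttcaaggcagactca
Hgd: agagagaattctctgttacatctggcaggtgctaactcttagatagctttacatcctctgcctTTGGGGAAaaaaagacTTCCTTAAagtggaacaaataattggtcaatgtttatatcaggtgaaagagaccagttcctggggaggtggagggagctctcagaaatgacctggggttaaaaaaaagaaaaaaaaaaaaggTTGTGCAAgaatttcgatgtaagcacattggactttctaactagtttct
The Hal stretch held 5 matches, a pair of them side by side, the Hgd stretch held 3, and those of Slc25a15 and Hpd held none of this or the 3 other motifs searched. Members with negative changes of like size whose stretches are not shown had few matches or none: in windows of 300 bases around the gene start Tat held 1 and Agxt and Gstz1 held 0. In these windows 11 of the 35 members (31.4%) held this motif against 44.1% of 27025 genes. The STAT motif TTCNNNGAA was in 4 members (11.4%, Ivd, Pccb, Prodh and Shmt2) and in 9.55% of all genes. The glucocorticoid receptor core motif AGAACA was in 7 members (20%) and in 21.3% of all genes, and the HNF4 motif CAAAGTCCA was in 0 members and in 0.555% of all genes. Both strands were searched, matches of the STAT and C/EBP motifs may overlap, and a match describes letters, not a binding site.

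Changes are given as differences of mean log2 intensity, tested with limma across all 12 arrays, and a gene is said to have passed the test or to have fallen where its adjusted p was under 0.05 over all probe sets of a comparison. The labels do not say whether the 2 arrays of a group came from separate mice, so every p measures the spread between these arrays. A permutation test of 2 arrays against 2 cannot give a p below 0.333, so single values are shown array by array instead. In whole liver, fewer hepatocytes and less RNA per hepatocyte cannot be told apart. The 7 measured hepatocyte markers summed to 44719 and 45934 after PBS against 43340.2 and 40747 after IL-6 where Socs3 was deleted, and to 44869 and 44420.1 after PBS against 41523 and 41186 after IFN-γ in Ifng-null livers. Both cytokine arrays thus lay below both PBS arrays in these pairs, as they did for 22.4% and 17.8% of all single genes. By gene, 5 of the 7 had a negative change after IL-6 in Socs3-deleted livers (median -0.08) and 6 after IFN-γ (median -0.15). In control livers the sums overlapped, at 46133 and 43947 with PBS and 43069 and 45929 with IL-6. The part of this sum in the members' changes was not tested. The median intensity per array was 80.6 to 85.7, and the replicates of a group correlated with Pearson's r of 0.977 to 0.987 across probe sets. On 2 arrays the pancreatic acinar markers stood apart: the 9 measured of 15 summed to 20627 on replicate 2 of Socs3-deleted livers after PBS and 8772 on replicate 2 of control livers after PBS, and to 1457 to 1710 on the other 10 arrays, where the trypsinogen gene Prss2 lay below the floor. Over all members, medians and counts of negative changes that rest on these 2 arrays are given with and without them. So are the medians by role, and single member changes after IL-6 in Socs3-deleted livers that turned or moved by over 1.5 times without them. Counts of members without overlap or at an unadjusted p under 0.05 are given only with these arrays. The same holds for the counts and medians of the other gene lists.

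After IL-6 in Socs3-deleted livers, most of the measured amino acid genes had lower intensity, with a median log2 change of -0.35 over the 33 members against -0.001 over all genes. Of the 33 members 29 (87.9%) had a negative change, against 50.7% of all genes. Both IL-6 arrays lay below both PBS arrays for 25 (75.8%), against 22.4% of all genes. Slc25a15, Hpd and Pycrl passed the test as lower, which is 3 of 33 (9.09%) where 0.129% of all genes did. No member passed as higher, where 1.19% of all genes did. At an unadjusted p under 0.05, 15 members (45.5%) were lower, against 5.99% of all genes. Without the 2 arrays of high pancreatic signal the member median was -0.41, 29 of 33 were negative, 6 members had moved by over 1.5 times and 2 had turned sign. The changes of Slc25a15, Hpd and Pycrl were then -1.02, -0.54 and -0.54. That fit keeps 1 PBS array each of control and Socs3-deleted livers. In it the calls of Hpd and Pycrl were lost, and calls over all probe sets were fewer as well. Leaving out any 1 of the 12 arrays ended the call of Hpd, and leaving out any 1 but the 2 IFN-γ arrays ended that of Pycrl. The plot of changes by role shows these changes beside those in the other cytokine responses.

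**Figure D1:**
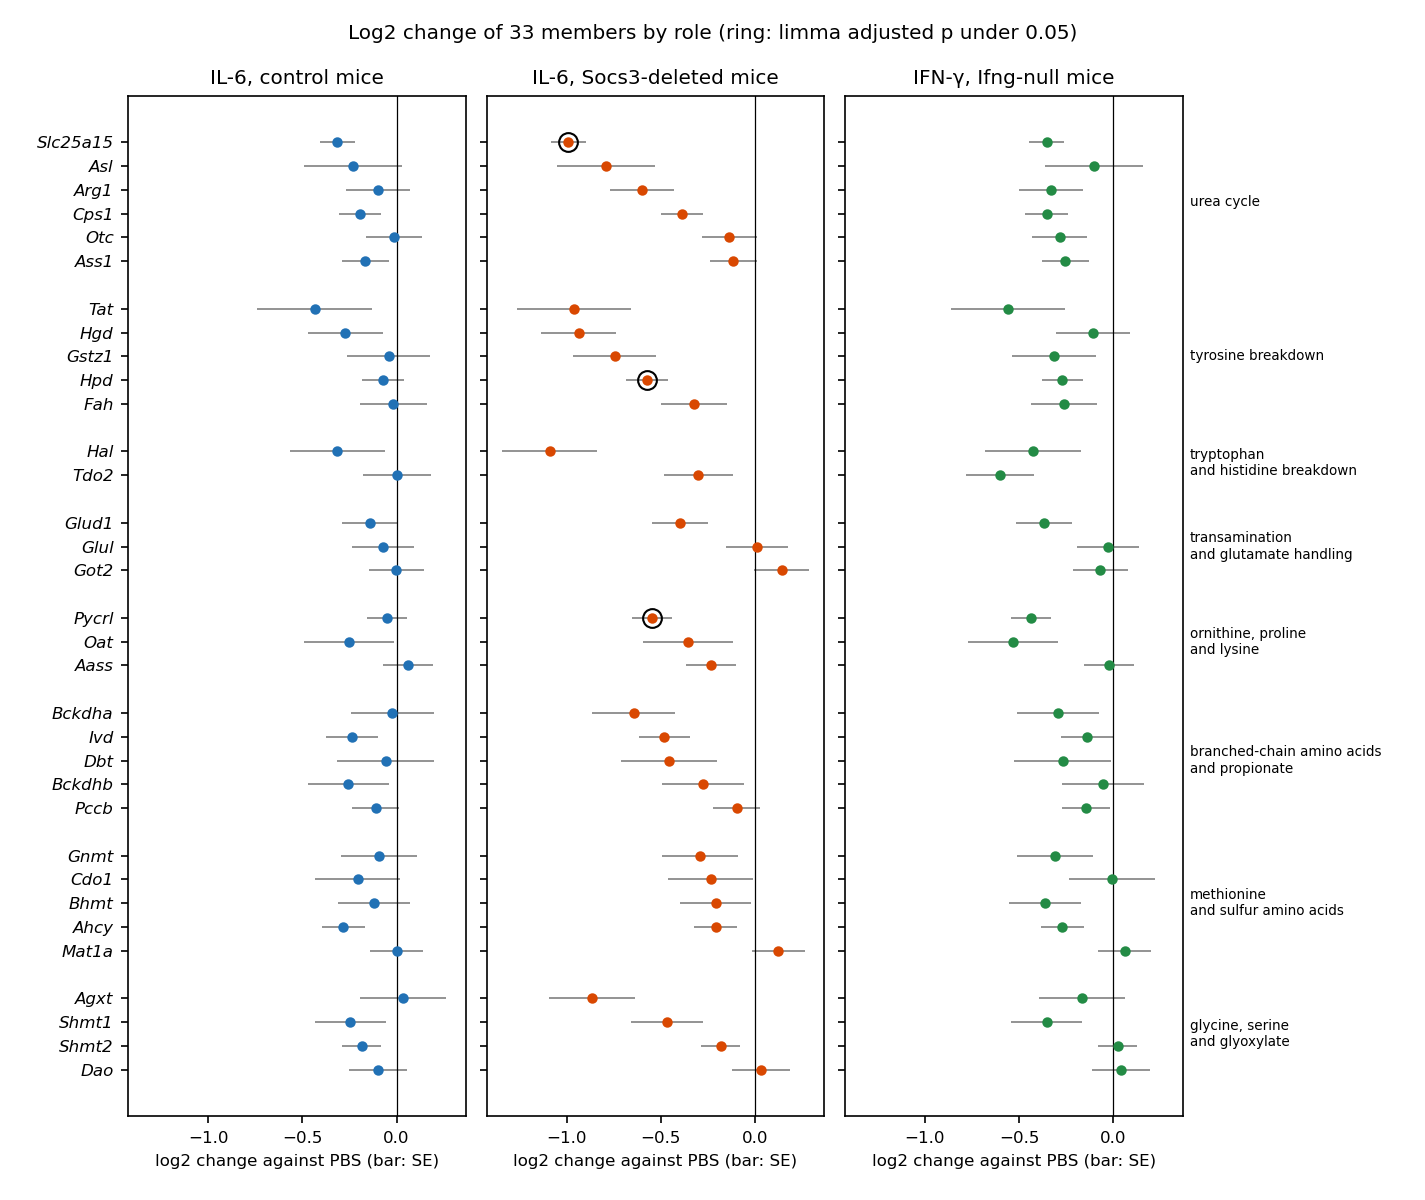
Log2 change against PBS (x axis, points, with bars of 1 SE) of the 33 tested members, ordered by role, for IL-6 in control livers, IL-6 in Socs3-deleted livers and IFN-γ in Ifng-null livers, from 2 arrays a group. The 3 ringed members, Slc25a15, Hpd and Pycrl, passed limma's test, all in Socs3-deleted livers, where 29 of 33 points lie left of 0.

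All 6 genes of the urea cycle were measured, and all 6 had a negative change after IL-6 in Socs3-deleted livers, with a median of -0.49 on the log2 scale (-0.60 without the 2 arrays of high pancreatic signal). Slc25a15, the mitochondrial ornithine carrier ORNT1 that brings ornithine back into the mitochondrion for the next turn of the cycle, had the most negative change of them. It read 1851 and 1837 in control livers after PBS and 1426 and 1539.8 after IL-6. In Socs3-deleted livers it read 2051 and 1961 after PBS and 970.5 and 1049 after IL-6. In Ifng-null livers it read 1395 and 1459 after PBS and 1121 and 1115 after IFN-γ. Replicates lay close together, and in each of the 3 pairs both cytokine arrays lay below both PBS arrays, with the lowest readings after IL-6 without Socs3. The fall there was 1.99-fold (-0.99 on the log2 scale, SE 0.09), with a limma adjusted p of 0.0012. It stayed under the threshold in 23 of 24 alternative settings, and was lost (adjusted p 0.115) where only the 4 arrays of the comparison were fitted.

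Arg1, the arginase that releases urea from arginine, read 3951 and 2909 in control livers after PBS and 2939 and 3406 after IL-6, which overlap. In Socs3-deleted livers it read 4444 and 3467 after PBS and 2701 and 2490.1 after IL-6, and in Ifng-null livers 3140.5 and 2781 after PBS and 2398 and 2301 after IFN-γ, without overlap in either pair. Its changes were -0.10, -0.60 and -0.33 on the log2 scale (SE 0.17 each), and limma's adjusted p in Socs3-deleted livers was 0.179. Asl, the lyase that splits argininosuccinate into arginine and fumarate, read 222 and 147 in Socs3-deleted livers after PBS and 97.7 and 112 after IL-6, a change of -0.79 (SE 0.26, adjusted p 0.265). It read 197 and 130.3 in control livers after PBS, 129 and 144 after IL-6, 129 and 162 in Ifng-null livers after PBS and 113 and 162 after IFN-γ. The spread between replicates of Asl was wide, and a second, dimmer probe set of this gene had a change of 0.07 in Socs3-deleted livers, so its probe sets disagree.

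Cps1, which fixes ammonia as carbamoyl phosphate in the first and rate-limiting step, had a mean intensity of 6943 ± 268 (SD, n = 2) in Socs3-deleted livers after PBS and 5309.9 ± 283 after IL-6 (log2 change -0.39, SE 0.11, adjusted p 0.186). Otc, which joins carbamoyl phosphate to ornithine, and Ass1, which adds the second nitrogen from aspartate, had a change of -0.14 and -0.11 with SEs of 0.15 and 0.12. The change of Ass1 was -0.21 and that of Otc -0.17 without the 2 arrays of high pancreatic signal. After IFN-γ the same 6 genes were closer together, from -0.35 for Cps1 and Slc25a15 to -0.10 for Asl, with a median of -0.31.

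**Figure D2:**
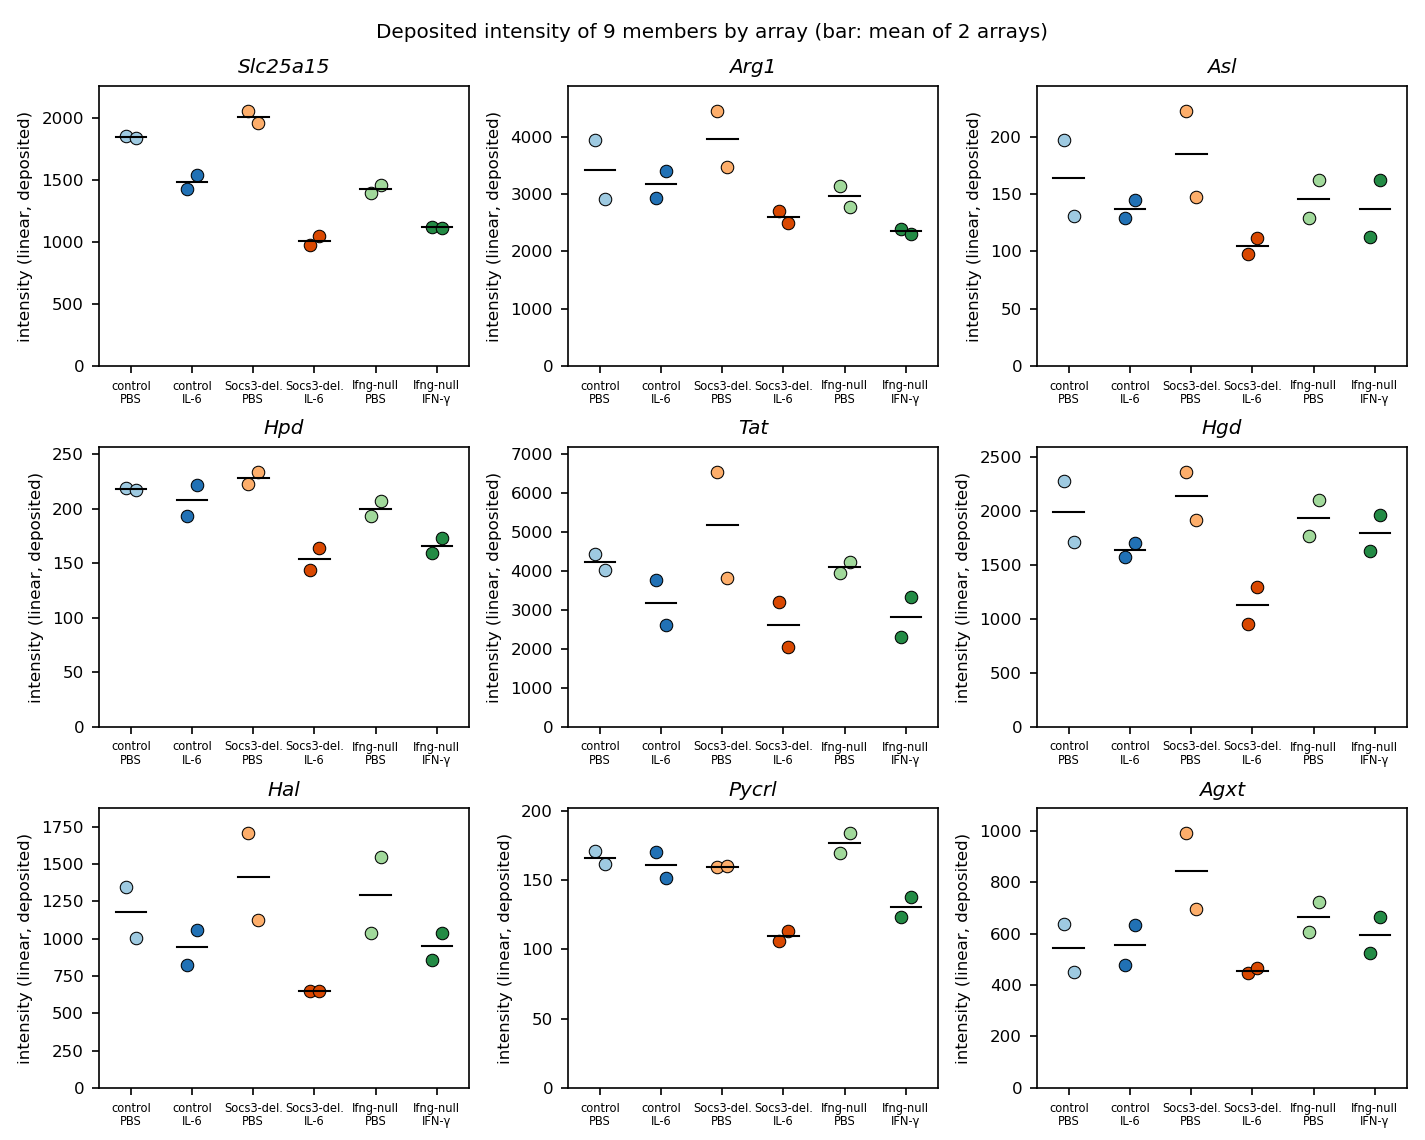
Deposited intensity (y axis, linear, from 0) of 9 members on each of the 12 arrays (points) in the 6 groups (x axis), with the mean of 2 arrays as a bar. Slc25a15 reads 970.5 and 1049 in Socs3-deleted livers after IL-6 and 1961 to 2051 after PBS, while Asl, Tat, Hal and Agxt have PBS replicates far apart.

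Each of the 5 genes that take tyrosine to fumarate and acetoacetate was measured, and each had a negative change after IL-6 in Socs3-deleted livers, with a median of -0.75 (-0.76 without the 2 arrays of high pancreatic signal). Hpd, the dioxygenase that makes homogentisate, read 223 and 234 after PBS and 144 and 164 after IL-6 there. It read 219.7 and 217 in control livers after PBS and 193 and 222 after IL-6. In Ifng-null livers it read 194 and 207 after PBS and 159 and 173 after IFN-γ. The arrays did not overlap in Socs3-deleted or Ifng-null livers and did in control livers. The fall without Socs3 was 1.49-fold (-0.57, SE 0.11, limma adjusted p 0.046), and this call held in only 6 of 24 alternative settings, with adjusted p from 0.029 to 0.35.

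Hgd, which opens the ring of homogentisate, read 2358 and 1919 in Socs3-deleted livers after PBS and 952 and 1299.5 after IL-6. It read 2279 and 1712 in control livers after PBS, 1572 and 1703 after IL-6, 1769 and 2103 in Ifng-null livers after PBS and 1630.5 and 1966 after IFN-γ. Its log2 change was -0.94 (SE 0.20, adjusted p 0.067) without Socs3 and -0.11 after IFN-γ, where the groups overlapped. Without Socs3 it passed in 2 of 24 alternative settings, quantile normalization (adjusted p 0.044) and array weights (0.040). Tat, the tyrosine aminotransferase that starts the route and is a classical target of glucocorticoids, read 6534 and 3812 in Socs3-deleted livers after PBS and 3202 and 2051 after IL-6. It read 4453 and 4028 in control livers after PBS and 3763 and 2605 after IL-6, while Ifng-null livers gave 3943 and 4247 after PBS and 2319 and 3331 after IFN-γ. All cytokine arrays of Tat lay below the PBS arrays of the same genotype, with log2 changes of -0.96, -0.44 and -0.56 and a large SE of 0.30. The first of these was -1.35 without the 2 arrays of high pancreatic signal. Gstz1, the maleylacetoacetate isomerase, had a change of -0.75 (SE 0.22, adjusted p 0.2) without Socs3, and Fah, the last enzyme of the route, by -0.32 (SE 0.18).

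Only 2 of the 5 genes of tryptophan and histidine breakdown were tested, Hal and Tdo2. Hal, the histidine ammonia-lyase, read 1705 and 1123 in Socs3-deleted livers after PBS and 648 and 652 after IL-6. It read 1345 and 1006 in control livers after PBS, 826 and 1059.5 after IL-6, 1039 and 1544 in Ifng-null livers after PBS and 855 and 1041 after IFN-γ. The Hal arrays overlapped in control and Ifng-null livers and did not in Socs3-deleted livers. Its change of -1.09 (SE 0.25, adjusted p 0.094) in Socs3-deleted livers was the largest among the members in size and did not pass, with PBS replicates far apart. Tdo2, the dioxygenase that opens the indole ring of tryptophan, read 7816 and 7765 in Ifng-null livers after PBS and 4153 and 6361 after IFN-γ. It read 7454 and 6358 in Socs3-deleted livers after PBS, 5399 and 5793 after IL-6, 7612 and 6941 in control livers after PBS and 6866 and 7737 after IL-6. The control arrays of Tdo2 overlapped and the others did not. Tdo2 had the most negative change of the members after IFN-γ (-0.60, SE 0.18, adjusted p 0.367), and -0.30 after IL-6 without Socs3. Its second probe set had a change of -0.69 and -0.53.

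Of the genes of transamination and glutamate handling 3 were tested, and 1 of them had a negative change after IL-6 in Socs3-deleted livers. The median was 0.01 (-0.04 without the 2 arrays of high pancreatic signal, where Glul turned negative as well). Got2, the mitochondrial aspartate aminotransferase, read 597 and 724 in control livers given PBS and 618 and 697 with IL-6. In Socs3-deleted livers it read 621 and 600.2 with PBS and 698 and 650.5 with IL-6, and in Ifng-null livers 651 and 509 with PBS and 581 and 519 with IFN-γ. The groups overlapped in control and Ifng-null livers, and both IL-6 arrays of the Socs3-deleted pair lay above both PBS arrays, with a log2 change of 0.14 (SE 0.15, adjusted p 0.895). A second probe set of Got2 read 21.7 to 35.5, near or below the floor, and was not tested, so Got2 rests on 1 probe set. Glud1, the glutamate dehydrogenase that frees ammonia in mitochondria, read 848 and 964 in Socs3-deleted livers after PBS and 704 and 667 after IL-6. It read 769 and 704 in Ifng-null livers after PBS and 659.7 and 492 after IFN-γ, and 923 and 872 in control livers given PBS and 754 and 875 with IL-6. Its changes of -0.40 and -0.37 without overlap did not pass (adjusted p 0.338 and 0.647). A second probe set of Glud1 had changes of 0.003 and 0.10 (SE 0.12), so its probe sets disagree. Glul, the glutamine synthetase of hepatocytes around the central vein, had a change of 0.01 (SE 0.16; -0.04 without the 2 arrays of high pancreatic signal), and its dimmer probe set by 0.26.

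Of the genes of ornithine, proline and lysine, 3 of 5 were tested and all 3 had negative changes after IL-6 in Socs3-deleted livers. Pycrl, named for its likeness to pyrroline-5-carboxylate reductase, the enzyme that makes proline, read 159 and 160.1 there after PBS and 106 and 113 after IL-6. It read 171 and 161 in control livers after PBS and 170.2 and 151 after IL-6. In Ifng-null livers it read 169 and 184 after PBS and 123 and 138 after IFN-γ. The control groups overlapped and the others did not. Pycrl fell 1.46-fold in Socs3-deleted livers (-0.55, SE 0.11, limma adjusted p 0.045), a call kept in 7 of 24 alternative settings (adjusted p 0.027 to 0.31). Its change after IFN-γ was -0.43 (adjusted p 0.203). Oat, the ornithine aminotransferase, read 2469.7 and 1356 in control livers after PBS and 1705 and 1379 after IL-6, 1587 and 1489.9 in Socs3-deleted livers after PBS and 1117 and 1295 after IL-6. In Ifng-null livers Oat read 1585 and 1663 after PBS and 1208 and 1044 after IFN-γ, a change of -0.53 (SE 0.24), and 1 control PBS array stood far above all others. The brighter probe set of Oat had a change of -0.35 after IL-6 in Socs3-deleted livers. A second probe set lay above the floor only on the Socs3-deleted arrays after IL-6, at 36.67 and 33.45. Its change of 0.09 there depends on the floor and cannot be set against that of the brighter one. Aass, which starts lysine breakdown, had a change of -0.23 without Socs3, and of -0.39 without the 2 arrays of high pancreatic signal.

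All 5 tested genes of branched-chain amino acids and propionate (of 7) had negative changes after IL-6 in Socs3-deleted livers, with a median of -0.46, and none passed. This median was -0.45, and 4 of the 5 were negative, without the 2 arrays of high pancreatic signal. Bckdha, a subunit of the branched-chain keto acid dehydrogenase, read 431 and 439 after PBS and 264 and 293 after IL-6 there. It read 489 and 293 in control livers given PBS and 345 and 403 with IL-6, and 479 and 550.4 in Ifng-null livers given PBS and 372 and 473 with IFN-γ. Only the control pair overlapped, and the change without Socs3 was -0.64 (SE 0.22, adjusted p 0.287). Ivd, the isovaleryl-CoA dehydrogenase of leucine breakdown, read 287 and 302 in Socs3-deleted livers after PBS and 209 and 213 after IL-6. It read 346 and 261 in control livers given PBS and 239.8 and 271 with IL-6, and 258 and 276 in Ifng-null livers given PBS and 249 and 236 with IFN-γ. The control arrays of Ivd overlapped and the others did not, and its change without Socs3 was -0.48 (SE 0.14, adjusted p 0.176). The other subunits Dbt and Bckdhb had a change of -0.46 and -0.28, and Pccb, a subunit of propionyl-CoA carboxylase, had -0.10, which turned to 0.03 without those arrays.

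Of the methionine and sulfur genes 5 of 7 were tested, and 4 of them had a negative change after IL-6 in Socs3-deleted livers, between -0.29 and -0.21. Without the 2 arrays of high pancreatic signal these were -0.55 for Gnmt, -0.35 for Cdo1, -0.22 for Ahcy and -0.055 for Bhmt. Mat1a, which makes S-adenosylmethionine, had a change of 0.12, and of 0.07 without those arrays. Gnmt, a methyltransferase that uses up S-adenosylmethionine, read 5640.1 and 3931 after PBS and 3744 and 3949.6 after IL-6 there, which overlap. It read 5848 and 4148 in control livers given PBS and 4849 and 4389 with IL-6, and 4225 and 4457 in Ifng-null livers given PBS and 3154 and 3886 with IFN-γ. Bhmt, which remakes methionine from homocysteine with betaine, read 3470.5 and 4291 in Socs3-deleted livers given PBS and 3493 and 3194 with IL-6, again with overlap. It read 5779.7 and 3759 in control livers given PBS and 4616 and 3979 with IL-6, and 4125 and 3871 in Ifng-null livers given PBS and 3084 and 3129 with IFN-γ. After IFN-γ neither gene's groups overlapped, and the changes were -0.31 for Gnmt and -0.36 for Bhmt (adjusted p 0.945 and 0.811). A second probe set of Bhmt had a change of -0.07 after IFN-γ and 0.07 after IL-6 in Socs3-deleted livers, so its probe sets disagree. Ahcy, which clears S-adenosylhomocysteine, had a change of -0.21 in its brightest probe set and -0.57 in its dimmest, and Cdo1, the cysteine dioxygenase, by -0.23.

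Among glycine, serine and glyoxylate genes, 3 of 4 tested (of 5) were negative after IL-6 in Socs3-deleted livers. Agxt, the peroxisomal aminotransferase that turns glyoxylate into glycine, read 989 and 696 after PBS and 445 and 467 after IL-6 there. It read 636 and 451 in control livers given PBS and 476 and 633 with IL-6, and 605 and 723 in Ifng-null livers given PBS and 524 and 663 with IFN-γ. Its change without Socs3 was -0.86 (SE 0.23, adjusted p 0.147), and its PBS arrays there read higher than those of the control livers. The groups overlapped in control and Ifng-null livers. Shmt1, the cytosolic serine hydroxymethyltransferase, read 417 and 364 (PBS) and 268 and 297 (IL-6) in Socs3-deleted livers. It read 606 and 407 in control livers given PBS and 431 and 407 with IL-6, and 436 and 529 in Ifng-null livers given PBS and 344 and 411 with IFN-γ. Here too the control arrays overlapped and the others did not. The change without Socs3 was -0.47 (SE 0.19, adjusted p 0.395) in this probe set and -0.02 in a dimmer probe set of Shmt1. Shmt2, the mitochondrial form, had a change of -0.18, and Dao, the D-amino acid oxidase, had 0.03, and 0.08 without the 2 arrays of high pancreatic signal.

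In control livers the median log2 change of the members after IL-6 was -0.11 against -0.008 over all genes. Of the 33 members 29 (87.9%) were negative, against 53.3% of all genes. Both IL-6 arrays lay below both PBS arrays for 7 members (21.2%) and for 13.9% of all genes. No member passed limma's test, and 0% of all genes did. At an unadjusted p under 0.05, Slc25a15 (-0.32, SE 0.09, p 0.0073) and Ahcy (-0.28, SE 0.11, p 0.033) were lower, which is 6.06% of members against 2.61% of all genes. The 95% intervals were -0.32 to 0.18 for Hpd and -0.29 to 0.19 for Pycrl. Replicate 1 of the control PBS pair had the highest member median of all arrays, and without it the median change was 0.01. Without the 2 arrays of high pancreatic signal it was -0.24, with 30 of 33 negative, 18 members had moved by over 1.5 times and 7 had turned sign. The change of Arg1 was then -0.32, that of Ahcy -0.41 and that of Pycrl -0.09, while those of Slc25a15 (-0.32) and Hpd (-0.08) were close to their values with all arrays.

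**Figure D3:**
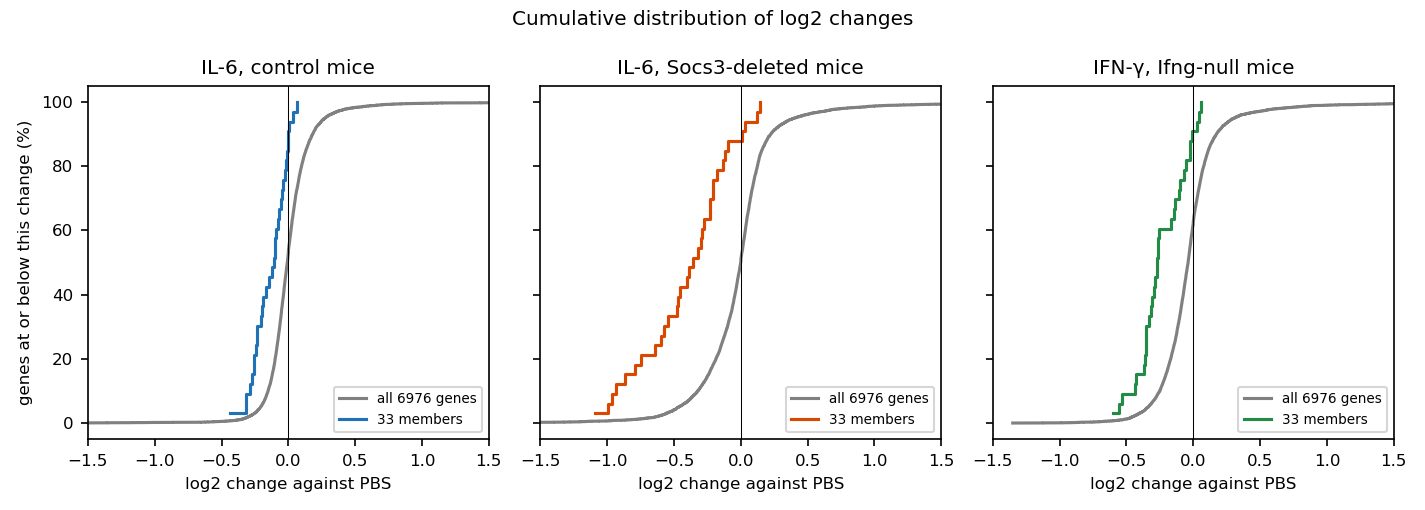
Cumulative share of genes (y axis, percent) at or below each log2 change against PBS (x axis) in the 3 cytokine responses, for the 33 members (coloured steps) and for all 6976 genes (grey). The member curve lies furthest left of the grey curve after IL-6 in Socs3-deleted livers, at medians of -0.35 and -0.001.

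Set directly against each other, the responses to IL-6 in control and in Socs3-deleted livers differed by a median of -0.24 over the members, Socs3-deleted minus control (25 of 33 negative), and by 0.002 over all genes. It was -0.19 (25 of 33 negative) without the 2 arrays of high pancreatic signal and -0.45 without replicate 1 of the control PBS pair. No member passed the test of the difference, and 0.0573% of all genes did. At an unadjusted p under 0.05 there were 5 members (15.2%), all more negative without Socs3, against 4.11% of all genes in either direction. These were Slc25a15 (-0.68, SE 0.13, adjusted p 0.335), Pycrl (-0.50), Hpd (-0.50), Agxt (-0.90) and Hgd (-0.66). After adjustment, no single member was thus shown to respond differently in the 2 genotypes.

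Averaged over both genotypes, the IL-6 response had a member median of -0.27, with 31 of 33 negative, against -0.01 over all genes. Slc25a15 alone passed as lower (-0.65, SE 0.07, limma adjusted p 0.003), 3.03% of members where 0.143% of all genes did. No member passed as higher, where 1.05% of all genes did. At an unadjusted p under 0.05, 16 members (48.5%) were lower, against 4.62% of all genes. Without the 2 arrays of high pancreatic signal the member median was -0.33, with 29 of 33 negative, and the change of Slc25a15 was -0.67. Its call was then lost, and calls over all probe sets were fewer as well.

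After IL-6, Socs3-deleted and control livers were also compared directly, with arrays that the responses above share. The member median was -0.26, Socs3-deleted minus control, with 28 of 33 negative, against -0.02 over all genes. Slc25a15 (-0.55, SE 0.09, adjusted p 0.029) and Pycrl (-0.56, SE 0.11, adjusted p 0.049) passed limma's test as lower in Socs3-deleted livers, 6.06% of members where 0.1% of all genes did. No member passed as higher, where 1% of all genes did. Lower at an unadjusted p under 0.05 were 6 members (18.2%), against 4.31% of all genes. Both calls are sensitive: that of Slc25a15 held in 12 and that of Pycrl in 6 of 24 alternative settings, and leaving out any 1 of the 8 control or Socs3-deleted arrays ended both. Leaving out the 2 arrays of high pancreatic signal ended both as well, at unchanged log2 changes of -0.55 for Slc25a15 and -0.56 for Pycrl. The PBS arrays are not part of this comparison and enter it only through the shared estimate of spread. Calls over all probe sets were then fewer as well.

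After PBS the Socs3-deleted and control livers differed by a member median of 0.01, with 16 of 33 negative, against -0.008 over all genes. No member passed limma's test, and 0% of all genes did. Agxt was the 1 member (3.03%) at an unadjusted p under 0.05, higher in Socs3-deleted livers by 0.63 (SE 0.23, adjusted p 0.951), against 4.29% of all genes. Without the 2 arrays of high pancreatic signal the median difference was -0.04, with 19 of 33 negative. By then 13 members had moved by over 1.5 times and 9 had turned sign.

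IFN-γ in Ifng-null livers was followed by a member median of -0.27, against -0.04 over all genes. Of the 33 members 30 (90.9%) were negative, against 62.1% of all genes. Both IFN-γ arrays lay below both PBS arrays for 18 members (54.5%) and for 17.8% of all genes. No member passed the test, where 0.774% of all genes did in either direction. At an unadjusted p under 0.05 there were 7 members (21.2%), all lower, against 7.47% of all genes in either direction. These were Pycrl, Slc25a15, Tdo2, Cps1, Glud1, Hpd and Ahcy, with changes from -0.60 for Tdo2 to -0.27 for Hpd and Ahcy. Replicate 1 after IFN-γ had the lowest member median of all arrays, and without it the median change was -0.15.

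The IL-6 response without Socs3 and the IFN-γ response share no arrays, and cytokine and genotype differ together between them and cannot be told apart. Their difference, IL-6 minus IFN-γ, had a member median of -0.11, against 0.03 over all genes. It was negative for 22 of 33 members (66.7%) and for 43.6% of all genes. The member median was -0.21 (22 of 33 negative) without the 2 arrays of high pancreatic signal and -0.24 without replicate 1 after IFN-γ. No member passed, where 0.0287% of all genes did. At an unadjusted p under 0.05 were 2 members (6.06%), against 3.11% of all genes: Slc25a15 (-0.64, SE 0.13, adjusted p 0.436) and Hgd (-0.83, SE 0.28), both more negative after IL-6. Hgd had a change of -0.94 in the first response and -0.11 in the second, and Tdo2 by -0.30 and -0.60.

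Ifng-null and control livers after PBS differed by a member median of -0.12, with 23 of 33 negative, against -0.004 over all genes, and no member passed, as was so for 0% of all genes. Slc25a15 (-0.37, SE 0.09) and Cps1 (-0.26, SE 0.11) were lower in Ifng-null livers at an unadjusted p under 0.05 (adjusted p 0.873 for both). That is 6.06% of members against 3.14% of all genes. The control label names a floxed Socs3 allele and the Ifng-null label does not. The Ifng genotype and other differences between these mice cannot be told apart. Without replicate 1 of the control PBS pair the median difference was 0.09. Without the 2 arrays of high pancreatic signal it was -0.17, with 27 of 33 negative, 20 members moved by over 1.5 times and 6 turned.

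**Figure D4:**
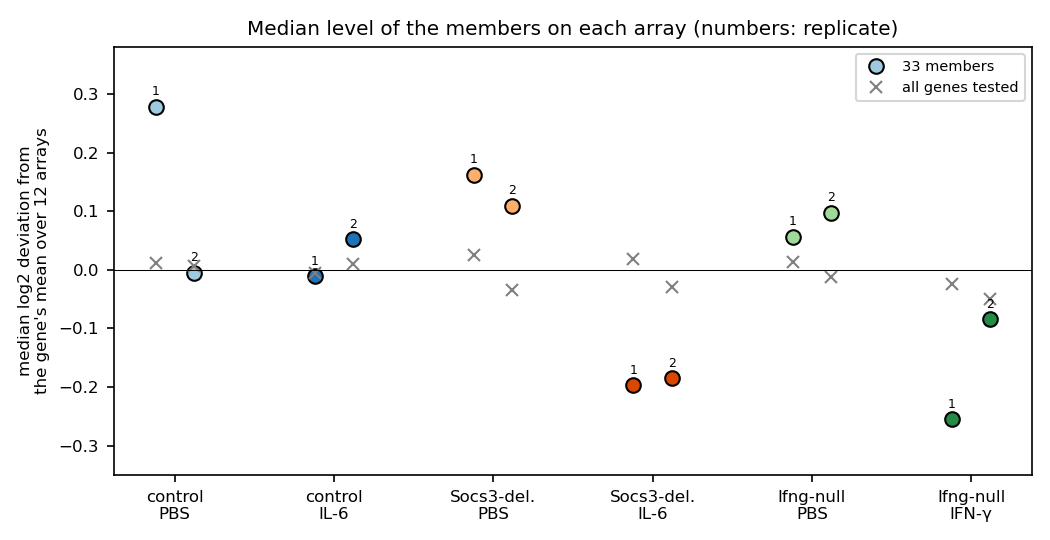
Median over the 33 members of the log2 deviation from each gene's mean over 12 arrays (y axis), for each array (circles, with replicate numbers) by group (x axis), and the same median over all genes tested (crosses). The Socs3-deleted arrays after IL-6 lie at -0.20 and -0.19 and after PBS at 0.16 and 0.11, while the control PBS arrays lie apart at 0.28 and -0.01.

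Genes of amino acid breakdown outside the list were looked at beside the members. Of 44 such genes 20 were tested, 13 had a negative change after IL-6 in Socs3-deleted livers and none passed limma's test, with a median of -0.19. These 13 are 65%, against 87.9% of the members and 50.7% of all genes. At an unadjusted p under 0.05, 3 of the 20 were lower and 0 higher, against 15 of 33 members lower. Over all 6976 genes 418 were lower and 389 higher. The largest changes were those of Gldc, the glycine decarboxylase (-0.78, adjusted p 0.148), Pcbd1, which recycles the cofactor of phenylalanine hydroxylase (-0.51, adjusted p 0.45), and Sardh, the sarcosine dehydrogenase (-0.40, adjusted p 0.45). Of 18 amino acid transporters 12 were tested, 5 with negative changes, none passed and the median was 0.11. At an unadjusted p under 0.05, 3 of the 12 were higher and 1 lower, against the same 389 and 418 of all genes. Over all genes, 0.129% passed in this comparison as lower and 1.19% as higher. Slc6a6, the taurine transporter, had a mean of 357 (PBS) and 765 (IL-6) in Socs3-deleted livers, a log2 difference of 1.09 that missed the threshold (adjusted p 0.052). Slc7a2, a carrier of arginine, ornithine and lysine, had a change of -0.57 and Slc38a2, a carrier of small neutral amino acids, by -0.56, with SEs of 0.42 and 0.47. In control livers after IL-6 and in Ifng-null livers after IFN-γ no gene of either list passed, where 0% and 0.774% of all genes did. The medians were -0.003 and -0.11 for the breakdown genes and -0.09 and -0.04 for the transporters.

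Markers of other cells were read on the same arrays. The 3 measured of 7 red cell markers summed to 677 to 7088 per array and differed within groups. Of the macrophage list 10 of 11 were measured and summed to 3305 and 3905 in Socs3-deleted livers after PBS and 4884 and 3927 after IL-6. In Ifng-null livers they summed to 2872 and 3808 after PBS and 2511 and 3900 after IFN-γ, so replicates differed widely. By gene, 7 of the 10 had a positive change after IL-6 in Socs3-deleted livers (median 0.13). Cd14, which hepatocytes also express in inflammation, passed there as higher (1.34, limma adjusted p 0.0012), where 1.19% of all genes did. The part of these markers in the members' changes was not tested. Kidney tubule markers summed to 374 to 432 and neutrophil markers to 520.1 to 586 per array, with no array standing apart, and the kidney marker Umod lay below the floor on all 12 arrays.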

How the data were processed

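Affymetrix mouse arrays of total liver RNA were available for 12 samples. The deposited file gives a linear intensity for each probe set on each array. No source used here says with which software, background correction or scaling the authors made these deposited intensities, so changes of dim genes may be compressed or inflated. Groups are those of the sample labels. Values under 33.0 (the 25th percentile of the whole table) were raised to this floor before log2, and the 9641 probe sets above it on 2 or more arrays were tested. For each gene the brightest probe set was used. The means of the 6 groups were estimated together from the 12 arrays in R 4.3.3 with limma 3.58.1 (6 residual and 3.38 prior degrees of freedom). Two-sided p-values were adjusted by Benjamini-Hochberg within each comparison across all tested probe sets, at a threshold of 0.05. The code was tested on simulated data.

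The members, gene lists, tests and the rule for named genes were chosen with earlier results of these data known. The rule gives all arrays for members called in any comparison, for the 2 members with the largest absolute change in each role, and for Slc25a15, Hpd, Pycrl and Arg1. Of the other lists it names called genes, or else up to 3 with the largest change. The 24 alternatives varied the normalization (quantile), the floor, the filter, the variance model, the array weights and the arrays that enter the fit (those of the comparison, all but 1, or all but the 2 of high pancreatic signal), or added a replicate block.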

Additional observations from a re-analysis of the deposited data

How the results depend on the processing

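With 2 arrays a group, the calls of single members depended on the setting, while the median of the members after IL-6 in Socs3-deleted livers stayed between -0.41 and -0.28 on the log2 scale in all 24 alternatives. Of the 3 members called there, 1 was called with no floor, with no filter, with probe sets above the floor on all arrays, with an intensity trend and without the 2 arrays of high pancreatic signal, and 0 with only the arrays compared. The count was 4 with quantile normalization and with array weights, where Hgd was called as well, and 3 with a floor at the 10th or 50th percentile and with robust eBayes. Leaving out 1 array at a time gave 1 to 2 calls, with 1 more often than 2. For the mean IL-6 response 1 member was called, and 0 without the 2 arrays of high pancreatic signal. Between genotypes after IL-6, 2 members were called. This count was 1 with quantile normalization, a floor at the 10th percentile, no floor, no filter, probe sets above the floor on all arrays or the replicate block, 0 with an intensity trend, only the arrays compared or without the 2 arrays of high pancreatic signal, and 0 to 2 when leaving out 1 array at a time. In the other 6 comparisons the count was 0 in all 24 alternatives. The log2 change of Slc25a15 in Socs3-deleted livers ran from -1.05 to -0.89, with adjusted p from 0.00085 to 0.115.

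The labels do not say what a replicate number marks. The replicate differences of the PBS and cytokine groups correlated at 0.14 in control, 0.12 in Socs3-deleted and 0.66 in Ifng-null livers, and between -0.25 and 0.66 over all pairs of groups, and the block was kept as an alternative. With the replicate block 2 members were called after IL-6 in Socs3-deleted livers, Slc25a15 (limma adjusted p 0.0032) and Hpd (0.029), while Pycrl had an adjusted p of 0.057.

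The median of control livers after IL-6 ran from -0.24 to 0.01 and that after IFN-γ from -0.34 to -0.15. The number of arrays limits the precision of every value, and 13 of the 47 listed genes had no probe set of their own.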

Other observations

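Regulators that liver cells use to control amino acid genes were listed apart from the members. Of 13 such genes 9 were tested and 7 had a negative change after IL-6 in Socs3-deleted livers, with a median log2 change of -0.32. In limma's test 0 passed at an adjusted p of 0.05, where 0.129% of all genes passed as lower and 1.19% as higher. At an unadjusted p under 0.05 there were 0 as well, where 418 of 6976 genes were lower and 389 higher. Ppara, the fatty acid sensor that also governs amino acid enzymes in rodent liver, had a mean intensity of 406 after PBS and 259.9 after IL-6 (log2 change -1.01, SE 0.54). Cebpb, a C/EBP factor of the acute phase response, had 1236 and 2279.8 (0.91, SE 0.50), and Onecut1, a hepatocyte factor, had a change of -0.59 (SE 0.36). These SEs are wide beside those of the members, and the limma adjusted p-values were 0.592, 0.621 and 0.676.

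Of 11 genes of amino acid synthesis and the starvation response 6 were tested and 4 had a positive change after IL-6 in Socs3-deleted livers. None passed, where 0.129% of all genes did as lower and 1.19% as higher. The median log2 change was 0.06. Atf4, the transcription factor that responds to amino acid shortage, had a mean of 759 after PBS and 1174 after IL-6 (0.63, SE 0.20, adjusted p 0.252). Ddit3, a stress factor that acts after Atf4, had a change of 0.15, and Psph, the last enzyme of serine synthesis, by -0.13.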
